A study of Homo sapiens with 36 samples.

Results

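This report describes 10 genes of glucose uptake, glycolysis and the pyruvate dehydrogenase kinases (PDK genes) among the 60656 genes of a melanoma RNA-Seq series: SLC2A1, SLC2A3, HK1, HK2, PFKFB3, PFKFB4, LDHA, PKM, PDK1 and PDK4. They were found by matching the Ensembl identifiers of the files to GENCODE symbols, and all 10 were measured in each of the 36 libraries. The libraries came from 3 BRAF-mutant human melanoma lines, called here 1205Lu (1205LuTR-NR2F1), WM793 (WM793TR-NR2F1) and A375 (A375TR-NR2F1). Every line carried a Tet repressor and an NR2F1 cDNA delivered by lentivirus that doxycycline (DOX) switches on, so these constructs were also present in the control groups. NR2F1 is an orphan nuclear receptor, and the study asked what it does in melanoma cells that persist under inhibitors of the BRAF and MEK kinases. Each line had 4 groups of 3 replicates: DMSO, DMSO + DOX (100 ng/mL), BRAFi + MEKi (1 uM PLX4720 with 35 nM PD0325901) and BRAFi + MEKi + DOX. The labels set DOX apart as absent or present without giving a time. All groups were harvested after 72 h of treatment that followed a first 24 h of culture. The study's methods mention DOX in that first period without naming groups, so whether the groups without DOX met it then was not settled. No library used here had DOX without the NR2F1 cDNA, and the effects of DOX and of NR2F1 cannot be told apart. 1205Lu and WM793 were grown in a medium with little serum and added insulin and A375 in DMEM with more serum, so line and medium cannot be told apart where A375 is compared with either.

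Cells take up glucose through facilitative transporters, and hexokinases trap it as glucose 6-phosphate. Enzymes of the PFKFB family set the level of fructose 2,6-bisphosphate, the strongest activator of the committed step of glycolysis, pyruvate kinase makes pyruvate, and lactate dehydrogenase A turns pyruvate into lactate. PDK enzymes phosphorylate and switch off the pyruvate dehydrogenase complex, which keeps pyruvate out of the mitochondrial citric acid cycle. BRAF-mutant melanoma is known for high glycolysis driven through ERK, MYC and hypoxia-inducible factor (HIF), and PDK4 is a known target of FOXO and PPAR factors that rises on fasting.

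Promoter sequences are shown for 5 of the genes on which the results turn: LDHA and PDK1, 2 of the 5 genes that fell in both WM793 and A375 under the inhibitors, HK2, whose replicates were widely spread, SLC2A1, which rose with DOX in 1 line, and PDK4, which rose in WM793. Each is the 250 bases before an annotated start (RefSeq sequences, GRCh38.p14), 5′ to 3′ on the gene's strand, with matches on either strand in capitals. The letters searched were ACGTG or GCGTG, the core of the HIF element, and AGGTCA, an element to which nuclear receptors bind.
LDHA, chr11:18394313-18394562, plus strand: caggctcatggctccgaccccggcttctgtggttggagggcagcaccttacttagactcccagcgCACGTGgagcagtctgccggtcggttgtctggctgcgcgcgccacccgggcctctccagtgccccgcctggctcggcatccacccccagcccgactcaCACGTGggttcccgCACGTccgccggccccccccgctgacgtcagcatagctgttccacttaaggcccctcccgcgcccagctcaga
HK2, chr2:74833877-74834126, plus strand: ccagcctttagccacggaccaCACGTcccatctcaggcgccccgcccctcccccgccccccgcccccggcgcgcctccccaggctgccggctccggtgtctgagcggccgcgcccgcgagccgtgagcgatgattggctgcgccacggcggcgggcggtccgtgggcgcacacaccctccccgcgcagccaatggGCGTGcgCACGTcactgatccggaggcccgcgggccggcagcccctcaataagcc
PDK1, chr2:172555840-172556089, plus strand: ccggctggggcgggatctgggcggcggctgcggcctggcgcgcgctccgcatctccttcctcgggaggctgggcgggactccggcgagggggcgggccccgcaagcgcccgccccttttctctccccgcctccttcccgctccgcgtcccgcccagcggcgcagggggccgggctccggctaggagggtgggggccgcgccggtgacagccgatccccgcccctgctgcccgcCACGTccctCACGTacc
SLC2A1, chr1:42958869-42959118, minus strand: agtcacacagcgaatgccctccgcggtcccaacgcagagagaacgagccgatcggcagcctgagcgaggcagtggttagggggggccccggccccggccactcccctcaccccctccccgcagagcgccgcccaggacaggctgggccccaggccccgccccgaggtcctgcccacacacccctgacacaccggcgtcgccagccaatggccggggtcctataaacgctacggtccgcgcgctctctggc
PDK4, chr7:95596517-95596766, minus strand: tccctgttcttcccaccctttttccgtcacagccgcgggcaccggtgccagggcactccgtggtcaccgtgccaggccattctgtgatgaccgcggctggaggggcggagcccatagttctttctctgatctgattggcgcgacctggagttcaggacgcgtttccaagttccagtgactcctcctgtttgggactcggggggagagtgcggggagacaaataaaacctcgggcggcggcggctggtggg

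The LDHA window held 5 matches to ACGTG, where each of its 2 copies of the palindrome CACGTG counts on both strands. HK2 held 2 matches to ACGTG and 1 to GCGTG, and PDK1 held 2 to ACGTG. None of the searched letters was in the SLC2A1 or PDK4 window, which says only that these letters are not there. Among all 35116 promoter windows of this length, 18.5% held ACGTG, 32.2% held GCGTG, 43.2% held either, 6.34% held CACGTG and 12.1% held AGGTCA. Of the 10 genes, 9 had an entry in the promoter table and SLC2A3 had none. Other annotated starts of the same genes differed: another HK2 start held 4 matches to ACGTG and 2 to GCGTG, another LDHA start held 1 to GCGTG, and another PDK1 start held none. Of the 9 genes, HK1 was the only one with AGGTCA, in windows of 3 of its starts. Of these windows, 2 overlap and hold the same 2 matches, and the other holds 1. The letters alone do not show where NR2F1 binds. Of the other genes that fell in both WM793 and A375, the PKM window held no ACGTG or GCGTG, HK1 held 1 GCGTG at 1 of its starts and none at the others, and PFKFB3 held 1 GCGTG at one start and 2 ACGTG at another.

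Libraries summed to between 27027824 and 34621958 normalized units (median 30838343), and no pair of the 36 libraries held identical values. NR2F1 was higher with DOX in every line under the inhibitors, by 3.33 in 1205Lu, 4.99 in WM793 and 4.14 in A375 on the log2 scale (limma adjusted p = 0.0049, 0.0038 and 6.7e-06). In DMSO its DOX difference was 6.39 for WM793 and 5.49 for A375 (adjusted p = 0.0008 and 3.3e-07), but for 1205Lu, which already had 2182 to 6273 units without DOX, it was 1.93 with an adjusted p of 0.41, and 0.0202 with a block on the replicate number. The 1205Lu libraries did not overlap there, at 6273, 2182 and 2327 units in DMSO and 20699, 9155 and 9270 in DMSO + DOX. DUSP6, an ERK target, fell in every line under the inhibitors, by 4.08 in 1205Lu, 2.25 in WM793 and 3.13 in A375 on the log2 scale. Melanoma lineage genes SOX10 (5684 units or more) and S100B (1100 or more) were expressed in every library, while MLANA and TYR reached at most 0.974 and 4.9 units. Of 8 markers of other cell types, the summed level stayed between 3.45 and 101 units in any library, with CD3E at 0 in all 1205Lu and WM793 libraries; 1 of them, VWF, passed the test with the inhibitors in 1205Lu and 1, PTPRC, in A375, and their part in the results was not tested. Replicate 1 of both inhibitor groups of 1205Lu stood apart, with DUSP6 at 75.8 and 74.6 units against 275 to 710 in the other 4 libraries. In bulk RNA, a lower share of cells that express a gene and less of its RNA per cell cannot be told apart.

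**Figure D1:**
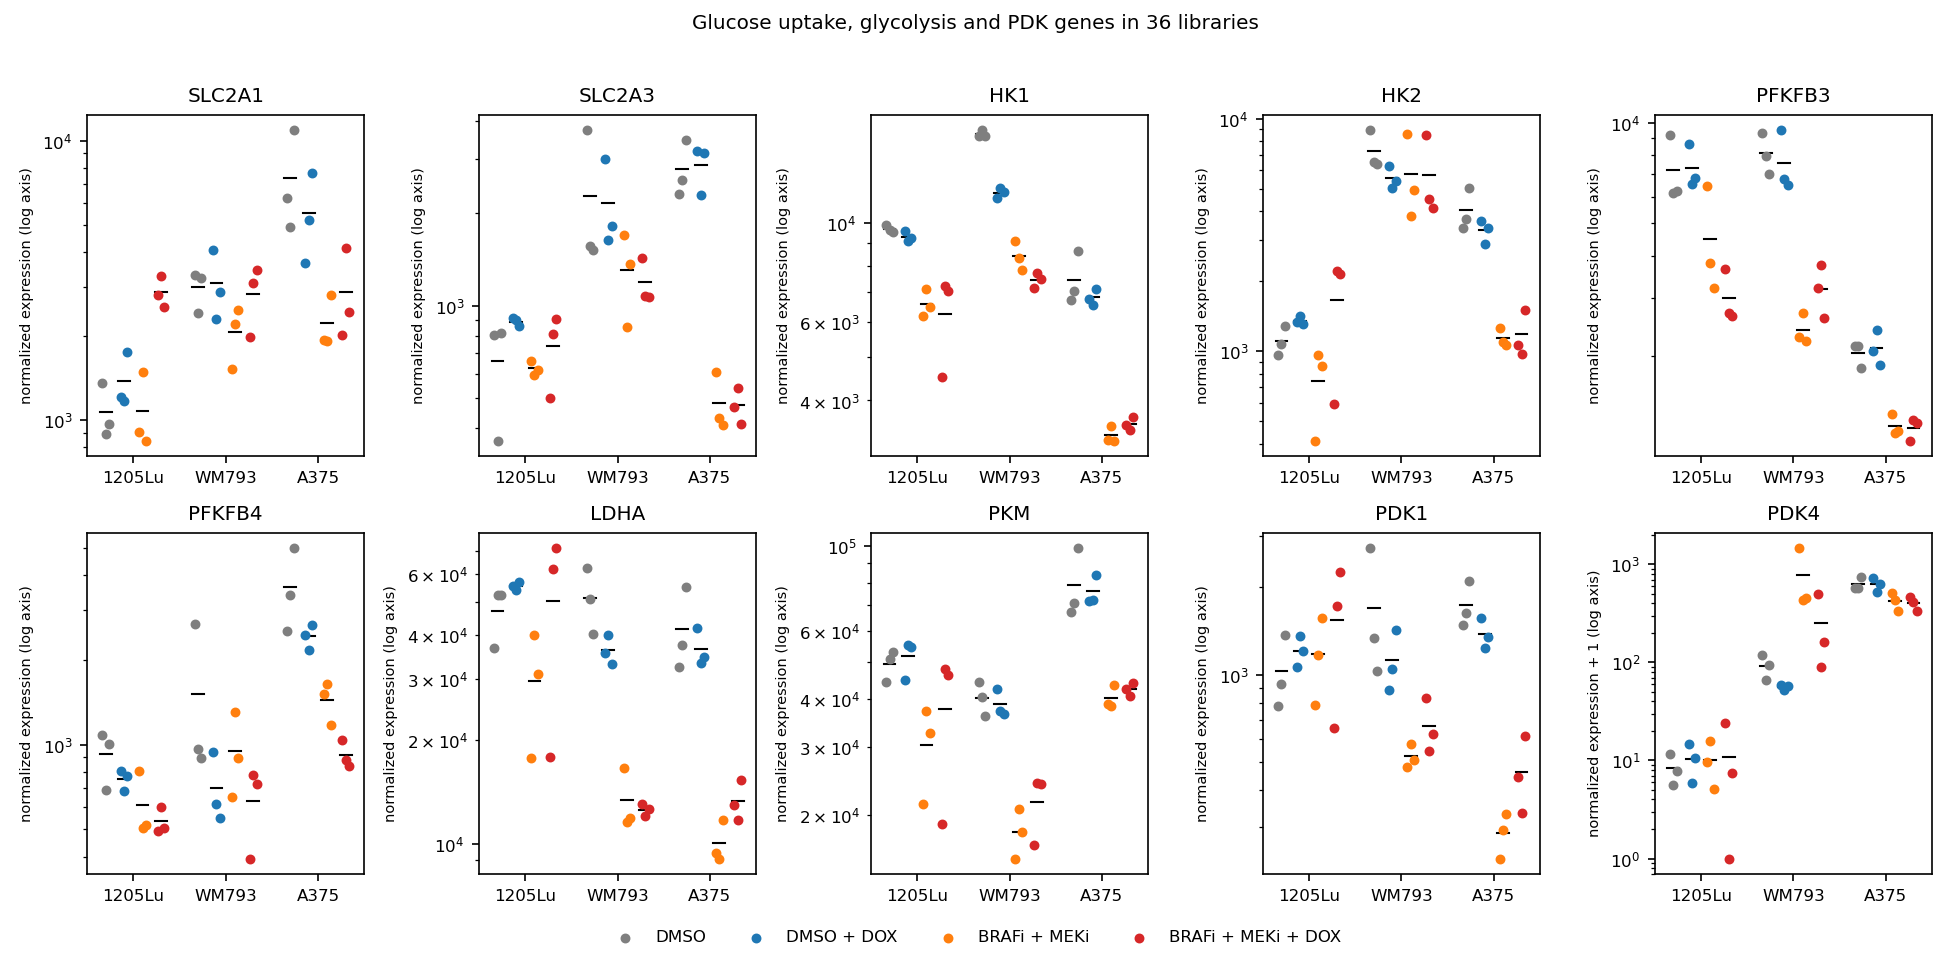
Normalized expression of the 10 genes in all 36 libraries (log axes, each panel with its own range, PDK4 plotted as value + 1), grouped by line and coloured by treatment, with a black bar at each mean of 3 replicates. In A375 every gene is lower in the BRAFi + MEKi libraries than in the DMSO libraries, PDK4 rises in WM793, and 1 library of each 1205Lu inhibitor group is low for LDHA, HK2 and PKM.

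In DMSO, the order of the genes was compared per kb of exons, the only scale on which levels of different genes are set beside each other here. LDHA and PKM stood highest in every line, with LDHA at 7827, 8521 and 6921 units per kb and PKM at 5764, 4705 and 9210 in 1205Lu, WM793 and A375. HK1, the hexokinase found in most tissues, exceeded HK2, the inducible form, in every line. The per-kb ratio of HK2 to HK1 was 0.133 ± 0.022 (SD, n = 3) in 1205Lu, 0.535 ± 0.111 in WM793 and 0.625 ± 0.046 in A375. PFKFB3 exceeded PFKFB4 in 1205Lu and WM793, with per-kb ratios of PFKFB4 to PFKFB3 of 0.130 ± 0.026 and 0.179 ± 0.094, but not in A375, where the ratio was 1.82 ± 0.79. PDK4 was the lowest of the 10 in 1205Lu and WM793, at 1.63 and 20.2 units per kb. In A375 PDK1 was the lowest and PDK4 a little above it, at 117 against 138 (ratio of PDK4 to PDK1 1.15 to 1.25).

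**Figure D2:**
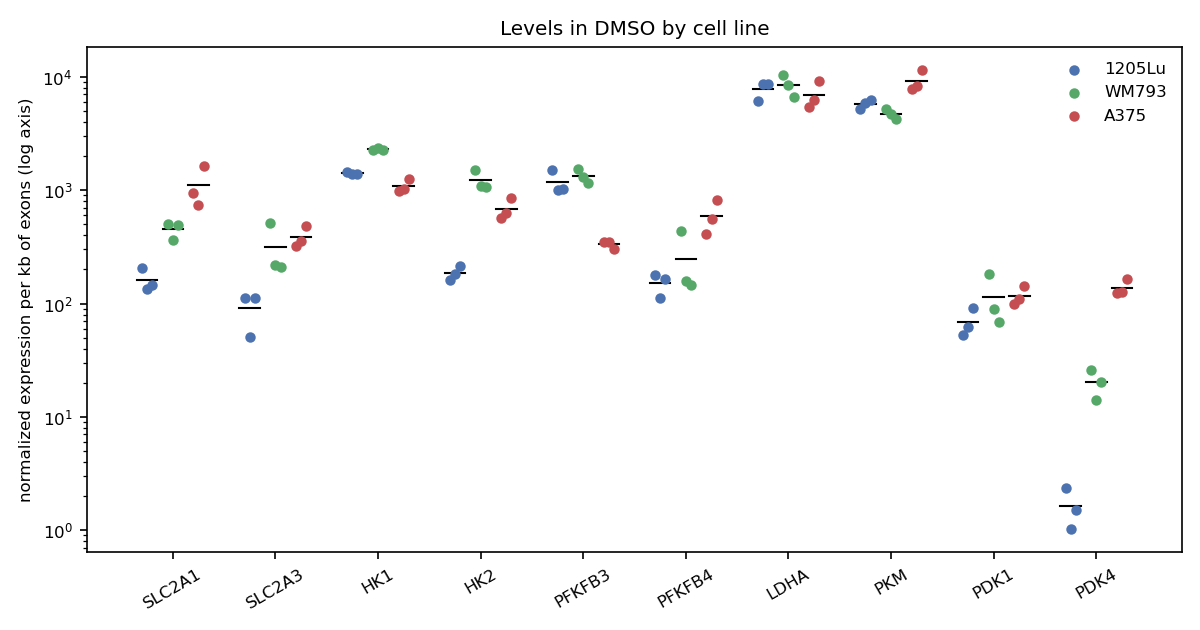
Normalized expression per kb of exons (log axis) of the 10 genes in the 9 DMSO libraries, coloured by line, with a black bar at each mean of 3 replicates. LDHA and PKM are the highest in each line, and PDK4 spans from 1.63 units per kb in 1205Lu to 138 in A375.

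Baseline levels differed most between lines for PDK4, SLC2A1, SLC2A3 and HK2. In the DMSO libraries PDK4 read 10.7, 4.63 and 6.87 units in 1205Lu, 118, 64.5 and 93.1 in WM793 and 566, 571 and 741 in A375, with no overlap between lines. SLC2A1 read 1359, 894 and 968 units in 1205Lu, 3306, 2426 and 3232 in WM793 and 6260, 4906 and 10888 in A375, which puts the lines in the same order without overlap. Between 1205Lu and WM793, 5 of the 10 genes differed where 30.7% of all genes did, and all 5 were lower in 1205Lu: PDK4 by 3.49, HK2 by 2.71, SLC2A3 by 1.74, SLC2A1 by 1.49 and HK1 by 0.70 on the log2 scale (limma adjusted p from 3.88e-07 to 0.000302). Between 1205Lu and A375, 8 differed against 46.8% of all genes, with PDK4 (log2 difference -6.27), SLC2A1 (-2.72), SLC2A3 (-2.14), PFKFB4 (-1.94), HK2 (-1.86) and PKM (-0.66) lower and PFKFB3 (1.79) and HK1 (0.39) higher in 1205Lu. Between WM793 and A375, 7 differed against 47.5% of all genes: PDK4 (-2.79), PFKFB4 (-1.40), SLC2A1 (-1.23) and PKM (-0.95) were lower in WM793, and PFKFB3 (1.98), HK1 (1.09) and HK2 (0.85) higher. The neighbours in the order whose difference did not pass the test were WM793 and A375 for SLC2A3, 1205Lu and WM793 for PFKFB3, PFKFB4 and PKM, and all 3 lines for LDHA and PDK1. Of these, the DMSO libraries did not overlap for PKM between 1205Lu and WM793 (44412 to 52996 against 36140 to 44276 units) or for PDK1 between 1205Lu and A375 (780 to 1364 against 1483 to 2104). Some calls with A375 rested on single libraries: PKM between 1205Lu and A375 missed the threshold without 1205Lu DMSO replicate 1 (adjusted p = 0.073) or A375 DMSO replicate 3 (0.13), and HK2 between WM793 and A375 (adjusted p = 0.0496) missed it without any of WM793 DMSO replicates 1, 2 and 3 or A375 DMSO replicates 1 and 2 (0.06 to 0.17), and with another pseudocount, no filter or rescaled totals (0.053, 0.066 and 0.1). PDK1 between 1205Lu and A375 (log2 difference -0.79, adjusted p = 0.06) passed with rescaled totals (0.022), with only the libraries compared (0.021) and without 1205Lu DMSO replicate 3 (0.03), and SLC2A3 between WM793 and A375 passed with array weights (0.04) and without WM793 DMSO replicate 1 (-0.83, adjusted p = 0.029).

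The first question was how these genes answer BRAFi + MEKi. In A375 all 10 fell, where 19% of the 24370 genes tested fell and 20.5% rose. In WM793, 5 fell (HK1, PFKFB3, LDHA, PKM and PDK1) and PDK4 rose, against 16.9% of 22074 genes that fell and 20.4% that rose. In 1205Lu 3 fell (HK1, PFKFB3 and PFKFB4) and none rose, against 14.4% and 16.5% of 22144 genes. That is a small excess of falls among 10 genes, and it was not tested. Their median log2 changes were -0.58 (1205Lu), -0.82 (WM793) and -1.48 (A375), beside 0.11, 0.15 and 0.06 over all genes tested. The comparisons within a line share libraries, and their values stand side by side only. In the libraries with DOX, BRAFi + MEKi + DOX against DMSO + DOX, all 10 fell again in A375 (14.8% of all genes fell and 16.2% rose), 4 fell and PDK4 rose in WM793 (15.1% and 16.7%), and in 1205Lu HK1 and PFKFB3 fell while SLC2A1 rose (13.2% and 15.1%). HK1 and PFKFB3 were the genes that fell in all 3 lines both without and with DOX.

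**Figure D3:**
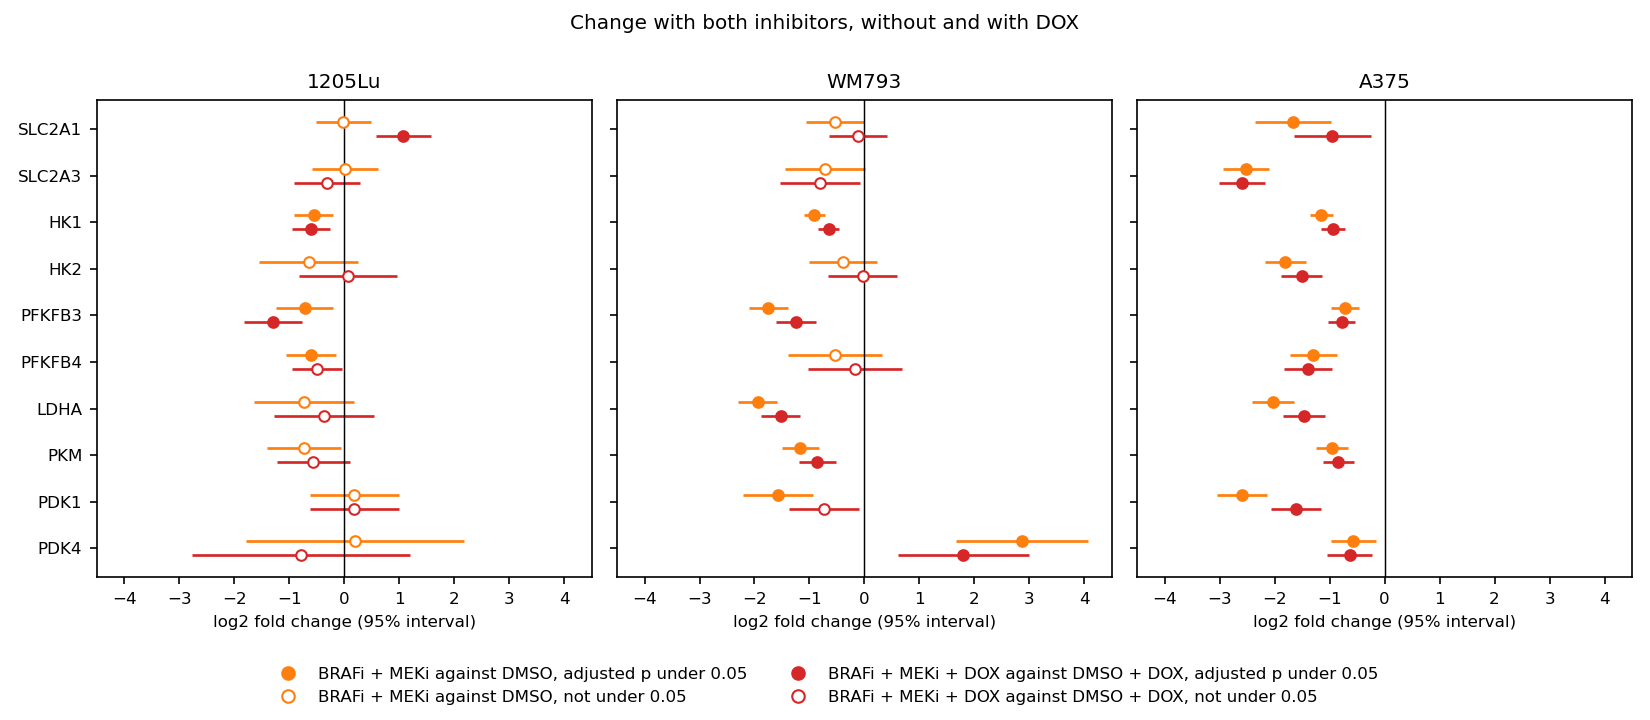
Log2 fold change (on log2(value + 1), with its 95% interval) of each gene with both inhibitors, without DOX (orange) and with DOX (red), in panels by line. Filled points have an adjusted p under 0.05: all 20 of A375, 11 of WM793 with PDK4 as the only gene to the right of 0, and 6 of 1205Lu.

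SLC2A1 encodes GLUT1, the main basal glucose transporter of dividing cells (ENSG00000117394, chr1:42925353-42958893, minus strand). In A375 it read 6260, 4906 and 10888 units in DMSO and 1941, 1922 and 2801 with BRAFi + MEKi, so the groups did not overlap, and it was 3.17-fold lower (log2 change -1.67, SE 0.33, adjusted p = 0.001). WM793 libraries read 3306, 2426 and 3232 units in DMSO and 1525, 2216 and 2487 with the inhibitors, overlapping groups with a log2 change of -0.54 (adjusted p = 0.10). In 1205Lu it read 1359, 894 and 968 units in DMSO and 908, 1483 and 846 with the inhibitors, so no difference could be seen (log2 change -0.02, 95% interval -0.52 to 0.49). In the 1205Lu libraries with DOX, SLC2A1 read 1216, 1176 and 1749 units in DMSO + DOX and 2814, 3291 and 2533 in BRAFi + MEKi + DOX. The 3 libraries of the latter group stood above all other 9 of the line, and SLC2A1 was 2.11-fold higher than in DMSO + DOX (log2 change 1.08, SE 0.23, adjusted p = 0.0038), but the test of the difference from the change without DOX did not pass (adjusted p = 0.79). In A375 with DOX it fell by 0.95 on the log2 scale (adjusted p = 0.039), a call that did not survive leaving out DMSO + DOX replicate 2 or 3 (adjusted p = 0.088 and 0.16), BRAFi + MEKi + DOX replicate 1 or 3 (0.16 and 0.11), the filter on low values (0.054) or the original scaling (0.061 after rescaling).

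SLC2A3 encodes GLUT3, a glucose transporter of high affinity (ENSG00000059804, chr12:7919230-8019007, minus strand). Its fall in A375 was second to that of PDK1 among the 10, from 2314, 2571 and 3482 units in DMSO to 610, 431 and 409 with BRAFi + MEKi. That is 5.77-fold lower (log2 change -2.53, SE 0.19, adjusted p = 3.4e-07), and with DOX the change was -2.59. In WM793 it read 3733, 1570 and 1517 units in DMSO and 1698, 852 and 1368 with the inhibitors, with a wide spread and no call (log2 change -0.72, adjusted p = 0.11), though a block on the replicate number made the call (0.0058). With DOX it went from 3009, 1640 and 1826 units to 1433, 1075 and 1069, without overlap (log2 change -0.82, adjusted p = 0.084). There that block (0.0032), array weights (0.0088) and a fit of only the libraries compared (0.02) made the call. 1205Lu libraries read 806, 364 and 813 units in DMSO and 662, 597 and 617 with the inhibitors, a log2 change of 0.01 (95% interval -0.60 to 0.61). Reads of near-identical copies could be split between loci: the pseudogene SLC2A3P1 averaged 193 units over the 36 libraries and SLC2A14 averaged 2.34, beside 1373 for SLC2A3. In 1205Lu SLC2A3P1 averaged 282 units beside 661 in DMSO and 83.5 beside 625 with the inhibitors. Its part in the 1205Lu values of SLC2A3 was not tested.

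HK1, which traps glucose in most tissues, fell in every line (ENSG00000156515, chr10:69269984-69401884, plus strand). It read 9895, 9637 and 9536 units in DMSO and 6177, 7093 and 6474 with BRAFi + MEKi in 1205Lu, 15579, 16082 and 15633 against 9092, 8318 and 7826 in WM793, and 6694, 7035 and 8634 against 3268, 3511 and 3253 in A375. In no line did the groups overlap. The log2 changes were -0.56 (SE 0.16, adjusted p = 0.019), -0.91 (SE 0.09, adjusted p = 3.1e-06) and -1.15 (SE 0.10, adjusted p = 1.2e-06), and with DOX they were -0.60, -0.65 and -0.94. In 1205Lu without DOX, leaving out BRAFi + MEKi replicate 1 or 3 put the adjusted p at 0.059 or 0.057.

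HK2 is the hexokinase that many tumours switch on (ENSG00000159399, chr2:74834127-74893359, plus strand). It fell in A375, from 3374, 3718 and 5022 units in DMSO to 1262, 1097 and 1066 with the inhibitors, 3.49-fold lower (log2 change -1.80, SE 0.17, adjusted p = 2.7e-06). In WM793 it read 8903, 6491 and 6369 units in DMSO and 8620, 3831 and 4926 with the inhibitors, and in 1205Lu 961, 1071 and 1280 against 413, 959 and 864. Neither passed the test (log2 change -0.39, adjusted p = 0.31, and -0.65, adjusted p = 0.27). Replicate 1 stood apart in both lines but in opposite directions: HK2 was highest there in the WM793 inhibitor groups (8620 and 8510 units against 3831 to 4926 in the other 4 libraries) and lowest in those of 1205Lu (413 and 594 against 864 to 2213). In an alternative chosen after these values were seen, leaving out both WM793 libraries gave a fall of 0.72 without DOX (adjusted p = 0.0064), and leaving out both 1205Lu libraries gave a rise of 0.69 with DOX (adjusted p = 0.0038).

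PFKFB3, the family member with the strongest kinase activity and therefore the one that most favours glycolysis, fell in all 3 lines (ENSG00000170525, chr10:6144934-6254644, plus strand). In WM793 it read 9318, 7931 and 7028 units in DMSO and 2282, 2705 and 2226 with BRAFi + MEKi, without overlap, and was 3.36-fold lower (log2 change -1.75, SE 0.17, adjusted p = 3.1e-06). A375 libraries read 2143, 2142 and 1846 units against 1342, 1182 and 1197 (log2 change -0.72, adjusted p = 0.00025). In 1205Lu the groups overlapped, at 9191, 6148 and 6263 units in DMSO and 6454, 3805 and 3195 with the inhibitors (log2 change -0.72, adjusted p = 0.037). With DOX the 1205Lu difference was without overlap, from 8627, 6530 and 6831 units to 3650, 2702 and 2641 (log2 change -1.29, SE 0.24, adjusted p = 0.0015). Its 1205Lu call without DOX did not hold when DMSO replicate 1 or 3 (adjusted p = 0.15 and 0.052) or BRAFi + MEKi replicate 2 or 3 (0.12 and 0.17) was left out, after rescaling of totals (0.075), or in a fit of the 6 libraries alone (0.059).

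PFKFB4, a family member that HIF is known to induce, fell in A375 from 2526, 3403 and 4974 units to 1511, 1635 and 1176 (ENSG00000114268, chr3:48517684-48562015, minus strand). That is 2.45-fold lower (log2 change -1.29, SE 0.20, adjusted p = 0.00018), and with DOX the change was -1.40. In 1205Lu it read 1083, 689 and 1004 units in DMSO and 805, 507 and 518 with the inhibitors, overlapping groups that passed the test narrowly (log2 change -0.61, adjusted p = 0.043). Leaving out DMSO replicate 1 or 3 or BRAFi + MEKi replicate 2 or 3 each removed that call (adjusted p = 0.13 to 0.15), as did no filter (0.051), rescaled totals (0.073) and a fit of the 6 libraries alone (0.081). WM793 had 1 high DMSO library, with 2677, 967 and 897 units against 652, 1301 and 893 with the inhibitors, and no call (log2 change -0.54, adjusted p = 0.31). UCN2, which overlaps PFKFB4 on the same strand and averaged 200 units beside 1253, could share reads with it; in 1205Lu UCN2 read 586 to 812 units in DMSO and 17.2 to 56.2 with the inhibitors.

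LDHA, which turns pyruvate into lactate, fell by similar amounts in WM793 and A375 (ENSG00000134333, chr11:18394560-18408425, plus strand). It read 62714, 51014 and 40317 units in DMSO and 16583, 11581 and 11909 with BRAFi + MEKi in WM793, and 32464, 37460 and 55186 against 9438, 9082 and 11698 in A375. It was 3.83-fold and 4.06-fold lower there (log2 changes -1.94, SE 0.17, and -2.02, SE 0.18, adjusted p = 1.1e-06 and 1.2e-06). 1205Lu libraries read 36875, 52361 and 52256 units in DMSO and 17702, 40200 and 30854 with the inhibitors, overlapping groups with no call (log2 change -0.73, SE 0.43, adjusted p = 0.21). With DOX the 1205Lu replicates were split, at 17815, 62071 and 71403 units in BRAFi + MEKi + DOX against 54167 to 56938 in DMSO + DOX. The files give 1 value per gene, so the starts of LDHA, with 5 matches in the window printed above, were not told apart. Its copies added little: LDHAP4 averaged 43.5 units beside 33166 for LDHA.

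PKM, pyruvate kinase, moved with LDHA (ENSG00000067225, chr15:72199029-72231819, minus strand). It read 44276, 40583 and 36140 units in DMSO and 15418, 20667 and 18068 with BRAFi + MEKi in WM793 (log2 change -1.17, SE 0.16, adjusted p = 5.5e-05). A375 libraries read 67324, 70997 and 98516 units against 38847, 38347 and 43572 (log2 change -0.95, SE 0.13, adjusted p = 7.4e-05). In 1205Lu the groups did not overlap either, at 44412, 50820 and 52996 units against 21324, 37268 and 32731, but the spread was wide and the test was missed (log2 change -0.73, SE 0.31, adjusted p = 0.09). Leaving out both low 1205Lu libraries, chosen after seeing them, gave a fall of 0.496 (adjusted p = 0.033), and array weights and a fit of the 6 libraries alone also made the call (both adjusted p = 0.031), as did a block on the replicate number (adjusted p = 0.013). With DOX the 1205Lu change of PKM was -0.56 (adjusted p = 0.195, and 0.048 with that block). Gene counts sum both splice forms of PKM, so M1 and M2 were not told apart.

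PDK1, the kinase isoform that HIF is known to induce, had the largest difference in inhibitor response between A375 and 1205Lu among the 10 (ENSG00000152256, chr2:172555373-172608669, plus strand). It fell in A375 from 1483, 1629 and 2104 units in DMSO to 233, 292 and 332 with BRAFi + MEKi, 6.07-fold lower (log2 change -2.60, SE 0.21, adjusted p = 5.8e-07). In WM793 it fell from 2719, 1333 and 1026 units to 482, 576 and 510 (log2 change -1.57, SE 0.29, adjusted p = 0.00083), also without overlap. In 1205Lu it read 780, 930 and 1364 units in DMSO and 785, 1170 and 1568 with the inhibitors, with a log2 change of 0.18 (95% interval -0.63 to 0.99). With DOX the log2 change was -1.61 for A375 (adjusted p = 7.6e-05) and -0.74 for WM793 (adjusted p = 0.071, and 0.0013 with array weights), and the difference between both DOX effects did not pass the test in either line (adjusted p = 0.31 and 0.90). For 1205Lu with DOX it was 0.18 (adjusted p = 0.76). Leaving out both 1205Lu inhibitor libraries numbered 1, chosen after seeing them, gave a rise of 0.71 with DOX (adjusted p = 0.039). The symbol PDK1 here is the pyruvate dehydrogenase kinase; the signalling kinase whose protein carries the same name is encoded by PDPK1, which went the other way, from 1509 to 1599 units in A375 DMSO to 2622 to 3165 with the inhibitors (log2 change 0.91, adjusted p = 4.1e-05). The antisense gene PDK1-AS1 averaged 6.69 units beside 1068, and the library kit does not keep strand.

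PDK4, the isoform known for its rise on fasting, was the only one of the 10 that rose with BRAFi + MEKi in the libraries without DOX, and it did so in WM793 (ENSG00000004799, chr7:95583499-95596516, minus strand). WM793 libraries read 118, 64.5 and 93.1 units in DMSO and 1459, 434 and 448 with BRAFi + MEKi, without overlap, 7.29-fold higher (log2 change 2.87, SE 0.56, adjusted p = 0.0011). With DOX they read 57.8, 50.8 and 55.9 units in DMSO + DOX and 501, 89.2 and 161 in BRAFi + MEKi + DOX (log2 change 1.80, SE 0.56, adjusted p = 0.024). Replicate 1 was highest in both inhibitor groups. Leaving out DMSO + DOX replicate 1, 2 or 3 raised the adjusted p with DOX to 0.058, 0.066 or 0.059, and leaving out BRAFi + MEKi + DOX replicate 1 gave a log2 change of 1.115 (adjusted p = 0.11). In A375 PDK4 fell a little, from 566, 571 and 741 units to 508, 431 and 335 (log2 change -0.57, adjusted p = 0.03), and with DOX by 0.63 (adjusted p = 0.022). The first A375 call failed after leaving out DMSO replicate 3 (adjusted p = 0.12), BRAFi + MEKi replicate 2 (0.063) or BRAFi + MEKi replicate 3 (0.13) and after rescaling (0.1). The second failed after leaving out DMSO + DOX replicate 1 (0.079), DMSO + DOX replicate 3 (0.054) or BRAFi + MEKi + DOX replicate 3 (0.085), after rescaling (0.06) and with array weights (0.07). 1205Lu libraries read between 0 and 23.3 units in all 4 groups, too low to show a change (95% interval of the log2 change -1.79 to 2.18). In WM793 the per-kb ratio of PDK4 to PDK1 went from 0.199 ± 0.085 (SD, n = 3) in DMSO to 5.07 ± 4.17 with BRAFi + MEKi, where replicate 1 was at 9.88 and replicates 2 and 3 at 2.46 and 2.87. In A375 the ratio went from 1.18 ± 0.06 to 5.09 ± 1.93 (3.3 to 7.14). PDK4-AS1, which overlaps PDK4 on the other strand, read at most 0.428 units in WM793 DMSO and 42.5 to 52.1 with BRAFi + MEKi, and without strand its reads and those of PDK4 cannot be told apart.

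The second question was whether induction of NR2F1 by DOX changes these genes under the inhibitors. In 1205Lu 1 of 10 passed the test, where 0.334% of all genes did, and it was SLC2A1. It read 908, 1483 and 846 units in BRAFi + MEKi and 2814, 3291 and 2533 in BRAFi + MEKi + DOX, without overlap, and was 2.74-fold higher (log2 change 1.45, SE 0.23, adjusted p = 0.022). It missed the threshold when BRAFi + MEKi replicate 1 or 3 (adjusted p = 0.074 and 0.081) or BRAFi + MEKi + DOX replicate 2 or 3 (0.15 and 0.088) was left out, and in a fit of only the 6 libraries compared (0.12). In WM793 and A375 none of the 10 passed limma's test, where 0.204% and 1.52% of all genes did; 2 and 3 of the 10 had an unadjusted p under 0.05, and with array weights, which called 2.17% and 4.25% of all genes there, 1 passed in each. SLC2A1 differed by 0.44 in WM793 (95% interval -0.09 to 0.97) and by 0.32 in A375 (-0.38 to 1.02). A test of the difference in the DOX effect between 1205Lu and these lines did not pass (1.01, adjusted p = 0.58, and 1.13, adjusted p = 0.42).

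HK2 and LDHA had split replicates in BRAFi + MEKi + DOX in 1205Lu. So did PKM (18898, 47872 and 46289 units) and PDK1 (653, 1726 and 2246). With single libraries left out, the DOX change of PKM under the inhibitors ranged from -0.008 to 0.668 and did not pass. HK2 read 413, 959 and 864 units in BRAFi + MEKi and 594, 2213 and 2150 in BRAFi + MEKi + DOX, and the replicate numbered 1 was the lowest in each group. The log2 change was 1.01 (SE 0.42, adjusted p = 0.43). It was 1.31 with array weights (adjusted p = 0.014), a setting that called 6.23% of all genes here, and 1.64 once BRAFi + MEKi + DOX replicate 1 was left out (adjusted p = 0.0092). LDHA changed by 0.62 (SE 0.43, adjusted p = 0.72), and by 1.25 without that library (adjusted p = 0.032). With replicate 1 of both groups left out, SLC2A1, HK2 and LDHA passed, the last 2 at 1.26 and 0.92 (adjusted p = 0.0025 and 0.043). These libraries were picked after their values had been seen, and this alternative leaves 2 libraries in each of these groups.

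The study named PDK1 among genes it selected from these libraries, so its direction here is not independent evidence. In A375 it read 233, 292 and 332 units in BRAFi + MEKi and 444, 333 and 615 in BRAFi + MEKi + DOX. These groups did not overlap, but the log2 change of 0.67 (SE 0.21) did not pass over all genes (adjusted p = 0.20; with array weights 0.69, adjusted p = 0.031). In 1205Lu it read 785, 1170 and 1568 units against 653, 1726 and 2246 (log2 change 0.27, adjusted p = 0.89), and in WM793 482, 576 and 510 against 833, 545 and 624 (0.33, adjusted p = 0.86). With single libraries left out, these changes ranged from -0.089 to 0.801 in 1205Lu and from 0.161 to 0.467 in WM793, and none passed. PDK4 in WM793 read 1459, 434 and 448 units against 501, 89.2 and 161, a log2 change of -1.76 (95% interval -2.96 to -0.56) with an adjusted p of 0.34, and with array weights the change was -1.75 (adjusted p = 0.034). PFKFB4 in A375 read 1511, 1635 and 1176 units against 1037, 882 and 842, without overlap (log2 change -0.64, adjusted p = 0.20).

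**Figure D4:**
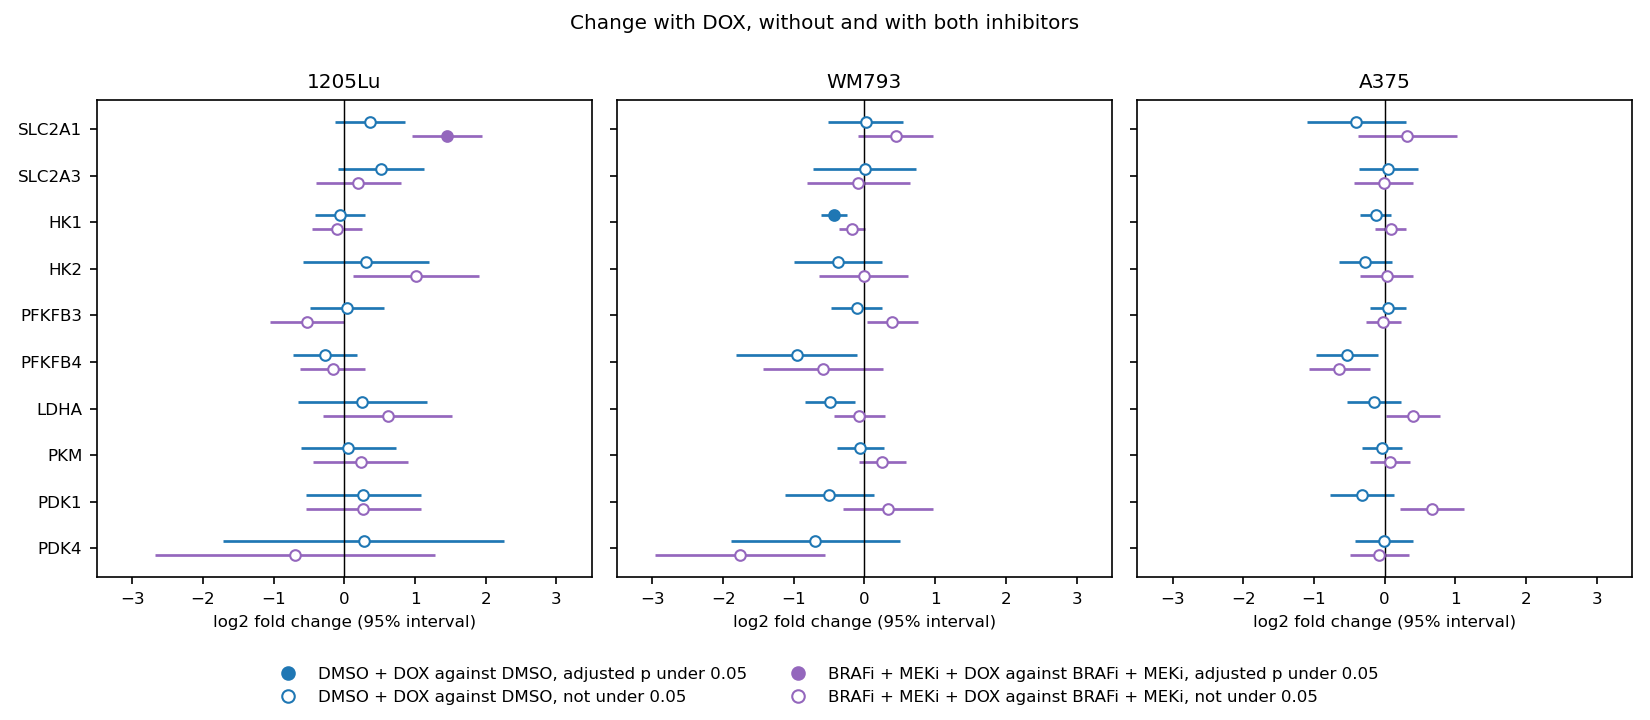
Log2 fold change (on log2(value + 1), with its 95% interval) of each gene with DOX, in DMSO (blue) and under both inhibitors (purple), in panels by line. Filled points have an adjusted p under 0.05: SLC2A1 under the inhibitors in 1205Lu and HK1 in DMSO in WM793.

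Without inhibitors, DOX changed 1 of the 10 genes in 1 line. HK1 in WM793 read 15579, 16082 and 15633 units in DMSO and 11350, 11974 and 11693 in DMSO + DOX, without overlap, a fall of 0.43 on the log2 scale (SE 0.09, adjusted p = 0.048), where 0.512% of all genes passed. Leaving out any 1 of the 6 libraries, DMSO replicates 1, 2 and 3 or DMSO + DOX replicates 1, 2 and 3, lost the call at log2 changes of -0.41 to -0.45 (adjusted p = 0.089 to 0.16), as did no filter (0.064), rescaled totals (0.079) and a fit of the 6 libraries alone (0.076). In 1205Lu and A375 none of the 10 passed limma's test, where 0.00903% and 0.0492% of all genes did, with 0 and 1 of the 10 at an unadjusted p under 0.05 and 0 called with array weights, which called 0.00903% and 0.0944% of all genes. The difference between both DOX effects passed for none of the 10 in any line, where 0%, 0% and 0.46% of all genes passed in 1205Lu, WM793 and A375 and 1, 0 and 2 of the 10 had an unadjusted p under 0.05; array weights called 0 of the 10, and 0.0903%, 0.195% and 0.968% of all genes. The 1 gene in 1205Lu was SLC2A1, whose DOX effect was larger under the inhibitors by 1.09 on the log2 scale (95% interval 0.38 to 1.80, adjusted p = 0.79).

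The third question was whether lines differ in their answer to BRAFi + MEKi. Between 1205Lu and A375, 4 of the 10 genes differed where 14.7% of all genes did: PDK1 by 2.78, SLC2A3 by 2.54, SLC2A1 by 1.65 and HK1 by 0.59 on the log2 scale, each lower in A375 relative to its DMSO level, though of these only HK1 fell in 1205Lu too (adjusted p = 0.00018, 0.00019, 0.0094 and 0.014). Between WM793 and A375, 4 differed where 22.8% of all genes did: PDK4 by 3.43, SLC2A3 by 1.81 and HK2 by 1.41, lower in A375, and PFKFB3 by -1.03, which fell further in WM793. Between 1205Lu and WM793, 2 differed where 14.5% of all genes did, PDK1 by 1.75 and PFKFB3 by 1.02, both lower in WM793 relative to DMSO, where PFKFB3 fell in 1205Lu too and PDK1 did not pass there (adjusted p = 0.013 and 0.012). The DOX effect under the inhibitors differed between lines for none of the 10 by limma's test, where 0.138%, 0.179% and 0.881% of all genes passed between 1205Lu and WM793, 1205Lu and A375, and WM793 and A375, with 3, 1 and 0 of the 10 at an unadjusted p under 0.05; array weights gave 1, 1 and 0, where that setting called 3.13%, 2.93% and 2.79% of all genes. With a block on the replicate number PFKFB3 passed between 1205Lu and WM793 (-0.92, adjusted p = 0.012, beside 0.23 without the block).

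Among these differences, PFKFB3 between 1205Lu and WM793 missed the threshold without 1205Lu BRAFi + MEKi replicate 1 (0.73, adjusted p = 0.056) or in a fit of the libraries compared (0.061), PDK4 between WM793 and A375 at a pseudocount of 0.1 (3.45, adjusted p = 0.092), PDK1 between 1205Lu and WM793 without WM793 DMSO replicate 1 (1.34, adjusted p = 0.059) and HK1 between 1205Lu and A375 without A375 DMSO replicate 3 (0.48, adjusted p = 0.054). HK2 between WM793 and A375 (adjusted p = 0.041) missed it without any 1 of 9 of the 12 libraries, the exceptions being WM793 DMSO replicate 1, WM793 BRAFi + MEKi replicate 2 and A375 DMSO replicate 1 (adjusted p = 0.053 to 0.13 in the others). LDHA sat near the threshold in both comparisons with 1205Lu, at 1.21 against WM793 (adjusted p = 0.072) and 1.29 against A375 (adjusted p = 0.052), and passed in both without 1205Lu BRAFi + MEKi replicate 1 (adjusted p = 0.02 and 0.013), and against A375 also without A375 DMSO replicate 1 (0.045). With array weights LDHA passed in both as well (adjusted p = 0.0042 and 0.0041), and with the replicate block (0.014 and 0.0088). Also near the threshold were SLC2A1 between WM793 and A375 (1.125, adjusted p = 0.061), which passed in 7 of 20 alternatives, and PDK4 between 1205Lu and WM793 (-2.67, adjusted p = 0.063), which passed in 5 of 21.

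The rest of the pathway was taken from lists of 57 further genes, chosen with earlier results of these data known. With BRAFi + MEKi, 7 of 52 tested fell and 9 rose in 1205Lu, 21 of 49 fell and 7 rose in WM793, and 22 of 53 fell and 9 rose in A375. Beside the shares of all genes given above (14.4% fell and 16.5% rose in 1205Lu, 16.9% and 20.4% in WM793, 19% and 20.5% in A375), the 1205Lu counts were near the background. Of the other glycolytic enzymes, 13 of 24 tested fell and 2 rose in WM793, led by GAPDH (log2 change -1.98), LDHB (-1.68) and HKDC1 (-1.58), and 13 of 26 fell and 3 rose in A375, led by ENO2 (-2.56), ALDOC (-2.28) and PFKP (-1.91). In 1205Lu 3 of 24 fell and 3 rose, with PFKP (-1.10), BPGM (1.05) and ADPGK (0.92) the largest. The list medians were -0.28, -0.50 and -0.68 in 1205Lu, WM793 and A375, beside 0.11, 0.15 and 0.06 over all genes tested. Of the other sugar transporters, whose counts in WM793 were close to those shares, 4 of 11 rose in 1205Lu, led by SLC2A12 (2.06), SLC2A11 (0.97) and SLC2A10 (0.84), 2 of 9 rose in WM793, SLC2A10 (1.66) and SLC2A8 (1.55), while SLC2A4 fell (-1.34), and 4 of 10 rose in A375, led by SLC2A5 (2.89), a fructose transporter, and SLC2A13 (1.496), while SLC2A4 fell (-2.35).

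Of the lactate and pyruvate carriers, 2 of 7 tested fell in 1205Lu, 2 of 6 in WM793 and 2 of 7 in A375, where 14.4%, 16.9% and 19% of all genes fell, and none rose. SLC16A7, which encodes the monocarboxylate transporter MCT2, fell in all 3 lines (log2 changes -1.498, -0.79 and -0.61 in 1205Lu, WM793 and A375), BSG, the chaperone of these carriers, in 1205Lu (-0.80) and WM793 (-0.50), and SLC16A3, the exporter MCT4, in A375 (-1.43). Of the pyruvate dehydrogenase complex and its other regulators, 2 of 10 rose and 2 fell in 1205Lu, near the 16.5% and 14.4% of all genes. In this list PDK2, another kinase isoform, rose in all 3 lines (1.37, 0.615 and 0.30 in 1205Lu, WM793 and A375), as did PDPR (1.22, 0.96 and 0.42), while PDHA1, a subunit of the complex, fell (-0.75, -0.52 and -0.75). The phosphatase gene PDP1, which acts against the PDK enzymes, rose in WM793 (1.73) and fell in A375 (-2.34), while PDP2 fell in both (-1.71 and -0.61). Of 15 known regulators, 6 rose and 2 fell in 1205Lu, beside the same 16.5% and 14.4% of all genes. Among them TXNIP, an inhibitor of glucose uptake, rose by 5.55, 5.47 and 0.69, and MYC, an inducer of glycolytic genes, fell by 2.07, 1.67 and 1.92 on the log2 scale in 1205Lu, WM793 and A375. ARRDC4, a relative of TXNIP, rose in all 3 lines (2.97, 3.26 and 1.16), and EPAS1, which encodes HIF2A, rose in WM793 (4.15) and 1205Lu (1.97) and had a log2 change of -1.055 in A375 (adjusted p = 0.057).

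Of the HIF targets outside glycolysis, 11 of 15 fell and 1 rose in A375, where 19% of all genes fell and 20.5% rose. The falls were led by CA9 (-6.93), ADM (-4.32) and NDRG1 (-3.89). In WM793 4 fell and 4 rose, with CA12 (-2.37), ADM (1.99) and DDIT4 (-1.85) the largest, and in 1205Lu 2 of 14 fell and 3 rose, with BNIP3L (1.33), CA12 (-1.09) and VEGFA (-0.64). The counts in 1205Lu and WM793 were near the shares of all genes given above. ERK output genes fell in every line, 8 of 10 in 1205Lu, 9 in WM793 and 9 in A375. DOX under the inhibitors changed 1 of the 53 pathway genes tested in A375, SLC2A12 (1.52, adjusted p = 0.00095), a share near the 1.52% of all genes. In DMSO it changed 1 of 49 in WM793, where 0.512% of all genes passed: ENO2 (-0.69, adjusted p = 0.021), along with HIF1A from the regulators (-0.76, adjusted p = 0.031).

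**Figure D5:**
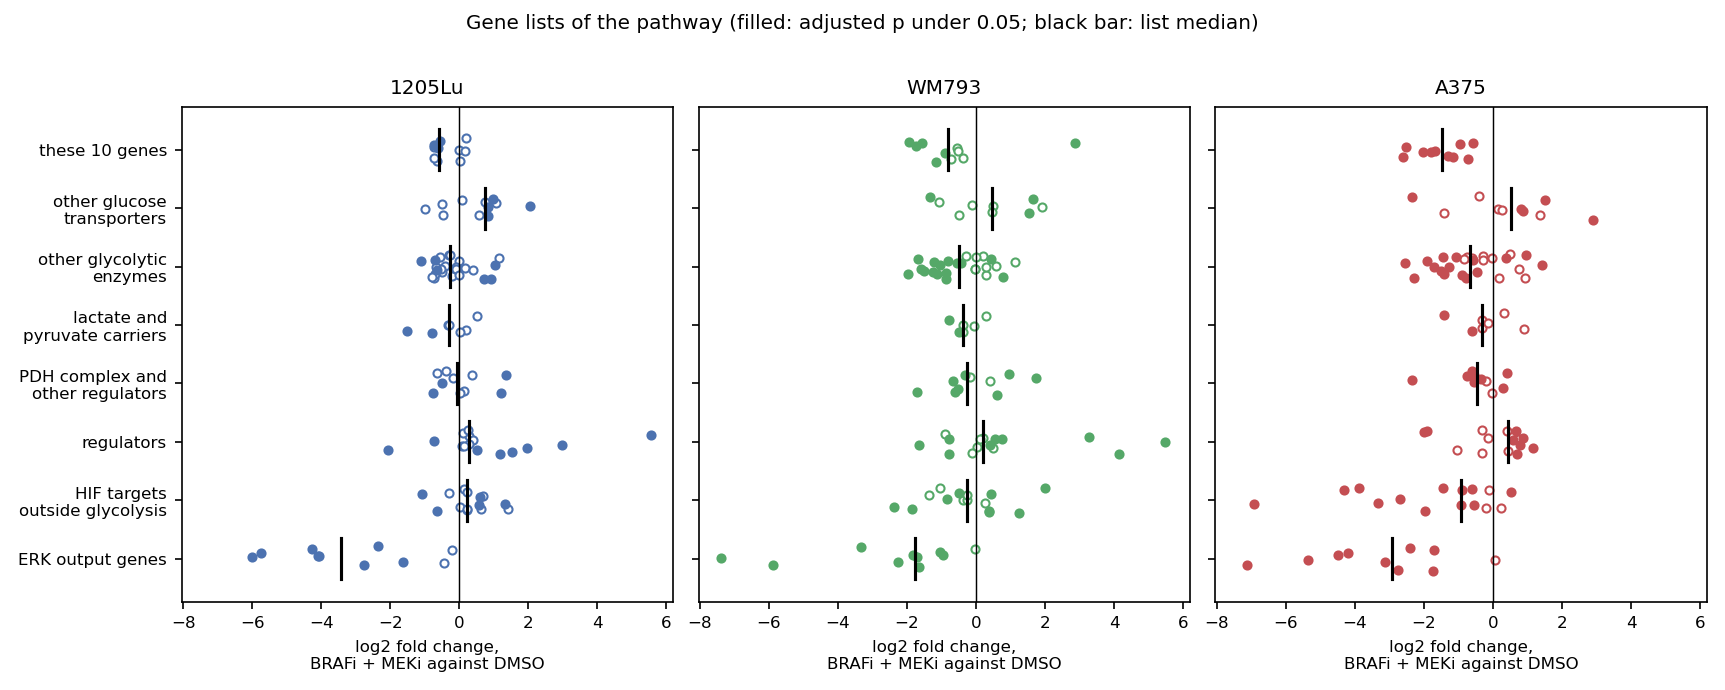
Log2 fold change of BRAFi + MEKi against DMSO for each tested gene of 8 lists, in panels by line on 1 common axis, with filled points at an adjusted p under 0.05 and a black bar at each list's median. The 10 genes have medians of -0.58, -0.82 and -1.48 in 1205Lu, WM793 and A375, while other glucose transporters have medians of 0.74, 0.47 and 0.53.

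Over the 36 libraries, with each line centred on its own mean, the 10 genes fell into patterns that are given as a description, since the points share their groups. LDHA went most closely with PKM (Pearson r = 0.92), HK1 (0.91) and PDK1 (0.88), and PFKFB3 went with HK1 (0.75) more than with HK2 (0.24). PDK4 had r between -0.49 and 0.08 with the other 9. SLC2A1 had its highest r with SLC2A3 (0.61). Among 12181 genes with a mean of at least 30 units in every line, those most like each member were BNIP3 (0.75) and SBNO2 (0.74) for SLC2A1, PGK1 (0.88) and NDRG1 (0.88) for SLC2A3, PHC2 (0.95) and EIF4H (0.94) for HK1, OSMR (0.86) and AK4 (0.86) for HK2, and IER3 (0.93) and ABCC4 (0.92) for PFKFB3. For PFKFB4 they were IL11 (0.80) and SLC45A3 (0.75), for LDHA ENO1 (0.97) and VDAC1 (0.97), for PKM PGAM1 (0.95) and EIF4A1 (0.95), for PDK1 PGK1 (0.90) and GDI2 (0.89), and for PDK4 SGTB (0.78) and LCA5 (0.74). PGK1, ENO1 and PGAM1 are themselves glycolytic enzymes.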

How the data were processed

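RNA-Seq of 36 libraries was analysed (12 groups of 3 replicates, which the study describes as independent experiments). The deposited values are a normalized signal per gene: the authors aligned reads to GRCh38 with STAR, counted them against GENCODE with RSEM and divided by DESeq2 size factors. Whole reads could not be recovered, so depth is unknown and the study's count test was replaced by limma. Coordinates are from GENCODE 44.

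Genes with a mean of at least 1 unit in a group were fitted as log2(value + 1), which understates changes of low genes, with limma 3.58.1 in R 4.3.3 (moderated test with a mean-variance trend, two-sided) over the 12 libraries of a line, or all 36 for differences between lines. Adjusted p-values are Benjamini-Hochberg over all genes tested, with a threshold of 0.05. Errors are SE for log2 changes and SD for ratios. Tables were made with Python 3.11.15, numpy 2.4.6 and pandas 2.3.3. The script was tested on simulated data.

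The main fits were unpaired, and values are from them unless a block on the replicate number is named. Same-numbered replicates were counted as possible pairs where every correlation of their deviations was over 0.1. Over the genes tested (a mean of at least 1), that held for BRAFi + MEKi + DOX against BRAFi + MEKi in 1205Lu (0.274, 0.109 and 0.113) and WM793 (0.251, 0.177 and 0.105), where blocking on the pair changed no call. When only genes averaging 30 units or more were used, it held for 8 of the 12 comparisons within lines, among them all 4 of 1205Lu, and there the block changed the call of PKM with the inhibitors in 1205Lu, without and with DOX.

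The members and gene lists were chosen with earlier results of these data known. Named genes are the 10 members, NR2F1, DUSP6, PDPK1, markers of the cell type check (chosen after their values were seen), genes that could share reads with a member, the 3 called genes of each list with the largest change in a line, given also in the other lines, and the 2 genes most correlated with each member. Alternatives were a pseudocount of 0.1, no filter, a mean of at least 10, only the libraries compared, a replicate block, rescaled totals, array weights and leaving out each library.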

Additional observations from a re-analysis of the deposited data

Results flagged for a closer look

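The response to BRAFi + MEKi differed between lines by a limma test of the difference itself for 10 pairs of a gene and 2 lines, given here as the first line minus the second on the log2 scale. Between 1205Lu and WM793 2 of the 10 genes differed, near the 14.5% of all genes that did. Between 1205Lu and A375 4 differed beside 14.7% of all genes, and between WM793 and A375 4 beside 22.8%. PDK1 stood out in both comparisons with 1205Lu, by 1.75 against WM793 and 2.78 against A375: it fell in both other lines, while the 1205Lu groups overlapped. SLC2A3 differed from A375 by 2.54 in 1205Lu and 1.81 in WM793. SLC2A1 (1.65) and HK1 (0.588) differed between 1205Lu and A375. Both fell in A375, and of them HK1 fell in 1205Lu. PFKFB3 fell further in WM793 than in 1205Lu (1.02) and than in A375 (-1.03). PDK4 differed by 3.43 between WM793, where it rose, and A375, where it fell, and HK2 by 1.41 between the same lines. Line and medium cannot be told apart in the comparisons with A375.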

How the results depend on the processing

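No direction of a called value reversed under any alternative. Counts of the 10 genes that passed moved by over 1.5 times as follows, and the cause was not tested. BRAFi + MEKi against DMSO in 1205Lu went from 3 to 1 with rescaled totals and ranged from 0 to 3 when single libraries were left out. DOX under the inhibitors in 1205Lu went from 1 to 2 with array weights and to 0 with only the libraries compared, and ranged from 0 to 3 with single libraries left out. That comparison went from 0 to 1 with array weights in both WM793 and A375. DOX in DMSO in WM793 went from 1 to 0 with no filter, rescaled totals or only the libraries compared, and to 0 whichever library was left out. The difference in inhibitor response between 1205Lu and WM793 went from 2 to 5 with array weights and ranged from 1 to 3 with single libraries left out, and that between WM793 and A375 went from 4 to 7 with array weights. Over all genes, array weights raised the calls there from 14.5% to 19.4% and from 22.8% to 30.7%. The difference in DOX effect went from 0 to 1 with array weights both for 1205Lu against WM793 (0 to 2 with single libraries left out) and for 1205Lu against A375 (0 to 1). With the replicate block, PKM passed in 1205Lu and SLC2A3 in WM793 with the inhibitors, without and with DOX, PDK1 passed at baseline between 1205Lu and A375 (0.05) and HK2 no longer between WM793 and A375 (0.055), and 4 genes differed in inhibitor response and 1 in DOX effect between 1205Lu and WM793. That block also added LDHA (0.0088) and HK2 (0.025) between 1205Lu and A375 and SLC2A1 (0.047) between WM793 and A375 to the differences in inhibitor response. Array weights raised calls over all genes too, for DOX under the inhibitors from 0.334% to 6.23% in 1205Lu, 0.204% to 2.17% in WM793 and 1.52% to 4.25% in A375. An alternative added after seeing the data, without replicate 1 of both 1205Lu inhibitor groups, gave 5 calls for the inhibitors with DOX, 3 for DOX under the inhibitors and 6 for the difference in inhibitor response between 1205Lu and WM793. The counterpart in WM793, also added then, moved no count by over 1.5 times. Only 3 replicates per group and unknown read depth limit low genes such as PDK4 in 1205Lu.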
